A study of Sus scrofa with 12 samples.

Results

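The 10 genes described here encode vasoactive peptides, their receptors and an angiogenic proteoglycan. They comprised the natriuretic peptide receptors NPR1, NPR2 and NPR3, the peptide apelin (APLN) with its receptor APLNR, endocan (ESM1), the peptide endothelin-1 (EDN1) with its receptors EDNRA and EDNRB, and the angiotensin receptor AGTR1. Each was taken by its symbol from a table of 31908 pig genes, and all 10 had a row. The set was chosen by measured counts for NPR3, APLN, ESM1 and AGTR1, which were lower with LPC + dantrolene than with LPC, and the other 6 genes are their relatives. Of the 10 genes, 8 were counted often enough to be among the 13216 genes tested, while APLNR and EDNRB were not.

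The cells were porcine aortic valve interstitial cells (paVICs), the fibroblast-like cells that fill the valve leaflet. They were wild type, came from leaflets wiped free of their endothelium and pooled over several hearts, and were kept in low-serum medium for the 24 h of treatment. Vehicle cells received dimethyl sulfoxide and ethanol, the carriers of the compounds, which every group received. LPC cells received 10 µM α-lysophosphatidylcholine, a phospholipid of oxidised lipoproteins that promotes calcification. Dantrolene cells received 60 µM of this ryanodine receptor antagonist, and LPC + dantrolene cells received 10 µM LPC with 60 µM dantrolene. Each group had 3 libraries, numbered 1 to 3, from 3 separate isolations, and the deposited counts had been adjusted for isolation. The same number was taken as the same isolation in every group, which the labels do not state.

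Natriuretic peptides relax vessels and restrain fibroblast growth through NPR1 and NPR2, cell-surface guanylyl cyclases that make cyclic GMP, whereas NPR3 lacks the cyclase and removes the peptides from the cell surface. Apelin acts through APLNR, a Gi-coupled receptor, and is induced by hypoxia. Endothelin-1 and angiotensin II constrict vessels and drive fibroblast contraction and matrix production, mostly through EDNRA and AGTR1, which couple to Gq, phospholipase C and the release of stored calcium. ESM1 is a secreted dermatan sulfate proteoglycan made by activated endothelium and is not a vasoactive peptide.

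Total counts ran from 16489684 to 24105935 per library, and values below are CPM, counts scaled to the library total with TMM factors. CPM was not divided by transcript length, so levels were compared between libraries and not between genes. LPC + dantrolene replicate 2 had the lowest TMM factor, 0.863, against 1.15 and 1.11 in the other libraries of its group. The differences of the chosen genes from LPC are also given without replicate 2. The cells matched their label, with a summed level of 10 fibroblast markers of 89870 to 92807 CPM in vehicle. This sum was 56341 to 89361 CPM with LPC and 56309 to 79892 CPM with dantrolene, both below vehicle. With LPC + dantrolene it was 66625 to 105967 CPM. Of the 10 markers only LUM was called against vehicle, higher with LPC, dantrolene and LPC + dantrolene (log2 differences 1.35, 1.59 and 1.35). Of all genes, 8.54%, 7.54% and 6.23% rose. Endothelial markers were low but present, and their sum was 179 to 205 CPM in vehicle, 132 to 171 with LPC, 146 to 148 with dantrolene and 128 to 137 with LPC + dantrolene. All 15 endothelial markers exceeded 3 counts in at least 1 library, although KDR, a defining endothelial receptor, had at most 5 counts in any library. The summed level of 6 smooth muscle markers was 2173 to 4307 CPM in vehicle, 2077 to 3787 with LPC, 1707 to 2186 with dantrolene and 905 to 2869 with LPC + dantrolene. Of these markers DES, the muscle intermediate filament desmin, fell with dantrolene by 1.30 on the log2 scale and with LPC + dantrolene by 1.63 (edgeR adjusted p = 0.0117 and 0.00114), and the other 5 were not called. Of all genes, 1.26% and 0.9% were called lower in these comparisons. These DES calls were kept in 14 and 19 of 19 alternative fits. The part of smooth muscle transcripts in the differences of EDN1, EDNRA and AGTR1 was not tested. In bulk RNA, fewer cells of a type and less RNA per cell cannot be told apart.

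NPR3, the clearance receptor, was highest with LPC. It read 31.1, 22.7 and 29.7 CPM in vehicle replicates 1 to 3, and 67.7, 68.4 and 111 CPM with LPC. It read 17, 29.5 and 13.3 CPM with dantrolene, and 27.9, 10.9 and 17 CPM with LPC + dantrolene. Every LPC library lay above every other library, while the other 3 groups overlapped, and LPC libraries lay above vehicle for 16.6% of all genes. Mean levels were 82.3 ± 24.8 CPM with LPC and 27.8 ± 4.50 CPM in vehicle (SD, n = 3), a difference of 1.56 on the log2 scale (SE 0.35). This difference was not tested, since the LPC libraries had served to choose the gene. With LPC + dantrolene the mean was 18.6 ± 8.57 CPM, and the log2 difference from LPC, which chose the gene, was -2.14 (SE 0.36). Within isolations 1, 2 and 3 it was -1.28, -2.63 and -2.70, and without LPC + dantrolene replicate 2 it was -1.89. NPR3 libraries with LPC + dantrolene overlapped those of vehicle and of dantrolene alone, with log2 differences of -0.58 from vehicle and -0.10 from dantrolene. The latter ran from -0.51 to 0.30 on leaving out libraries. Dantrolene and vehicle libraries took no part in the choice, and there the log2 difference was -0.48 (95% interval -1.16 to 0.20; edgeR adjusted p = 0.573). NPR3 (ENSSSCG00000036201) spans chr16:18841540-18929813 of Sscrofa11.1.

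The receptors that signal through cyclic GMP did not have this pattern. NPR2, the receptor for C-type natriuretic peptide, read 84.2, 106 and 90.6 CPM in vehicle, and averaged 65.7 ± 6.68 CPM with LPC and 70.2 ± 16.2 CPM with dantrolene (SD, n = 3). All 3 LPC libraries and all 3 dantrolene libraries lay below the vehicle libraries, as they did for 10.6% and 11% of all genes tested. Neither log2 difference passed the test (-0.51, edgeR adjusted p = 0.505, and -0.42, edgeR adjusted p = 0.621). With LPC + dantrolene NPR2 read 50.2, 126 and 76.6 CPM, a spread that covered the other 3 groups. Its log2 difference from LPC was 0.36, and -0.07 without LPC + dantrolene replicate 2, the library at 126 CPM.

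NPR1, the receptor for atrial and brain natriuretic peptides, had as few as 58 counts in a vehicle library. It read 10.5, 3.39 and 9.0 CPM in vehicle and averaged 5.78 ± 1.67 CPM with LPC, 4.24 ± 0.909 CPM with dantrolene and 5.27 ± 0.669 CPM with LPC + dantrolene (SD, n = 3). The vehicle libraries spanned all of the treated ones. Its log2 difference between dantrolene and vehicle was -0.85 (95% interval -1.65 to -0.04; edgeR adjusted p = 0.258). NPR1 (ENSSSCG00000006572) lies at chr4:95957220-95974253 and NPR2 (ENSSSCG00000005322) at chr1:236508994-236529172.

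**Figure D1:**
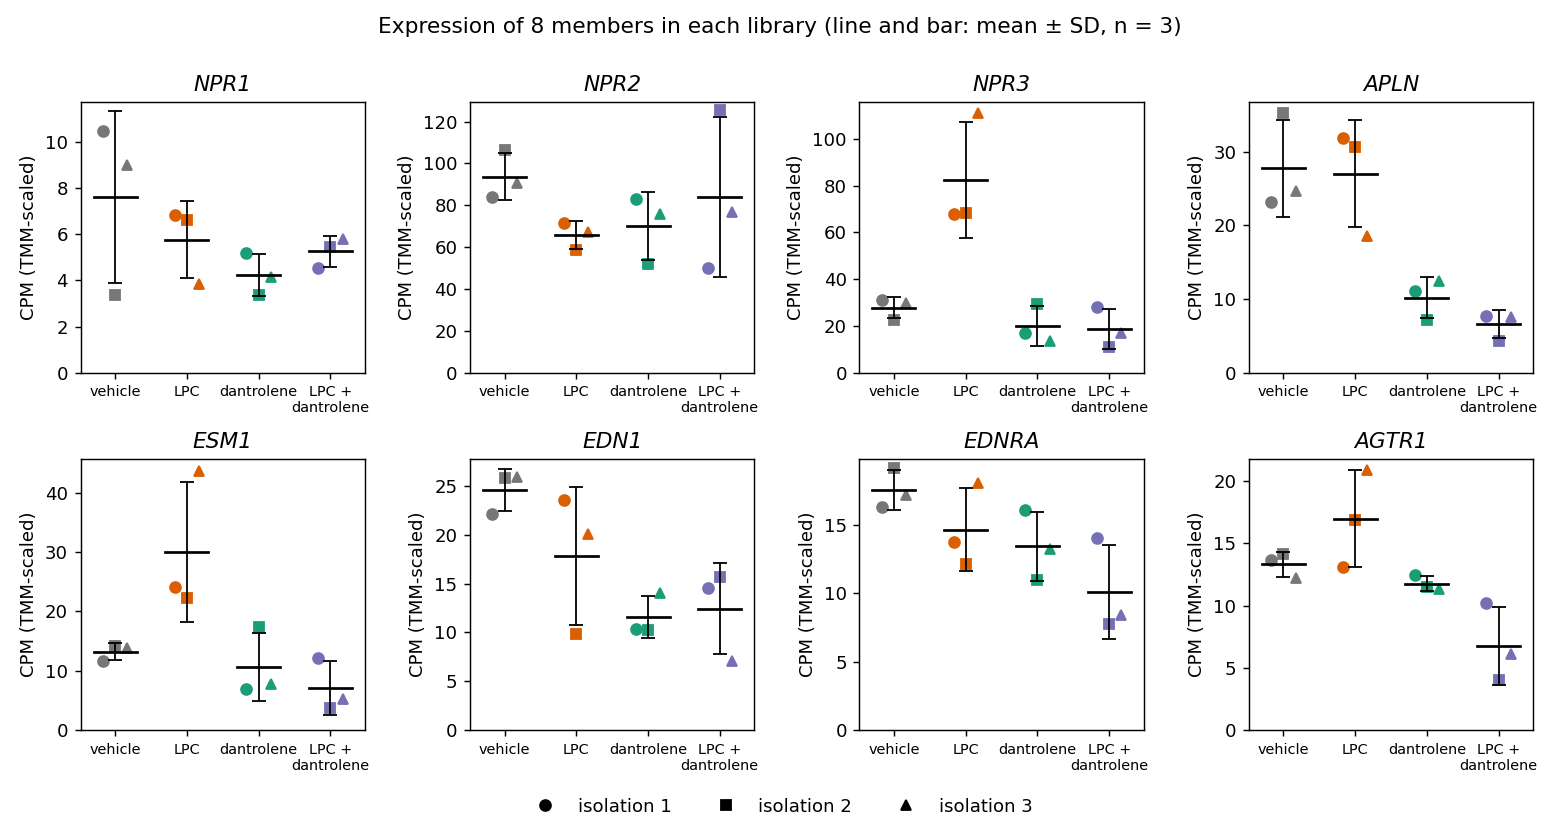
CPM (vertical axes, each from 0) of the 8 genes tested, in vehicle, LPC, dantrolene and LPC + dantrolene (horizontal axes), with a symbol for each isolation and the mean ± SD of 3 libraries as a line and bar. NPR3 and ESM1 are highest in the 3 LPC libraries, whereas APLN is low in all 6 libraries with dantrolene.

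APLN, the apelin precursor, was lower wherever dantrolene was present. It read 23.2, 35.3 and 24.7 CPM in vehicle and 11, 7.08 and 12.4 CPM with dantrolene, so the groups did not overlap, and 11% of all genes were likewise lower in all 3 dantrolene libraries. Mean levels were 27.7 ± 6.57 CPM and 10.2 ± 2.77 CPM (SD, n = 3), a log2 difference of -1.45 (SE 0.35; 95% interval -2.14 to -0.75; edgeR adjusted p = 0.0022). Within isolations 1 to 3 it was -1.06, -2.30 and -0.99, where the lack of overlap already fixed the sign. The call was kept in 18 of 19 alternative fits and was lost without dantrolene replicate 2, where the log2 difference was -1.24 (edgeR adjusted p = 0.0665). LPC alone left APLN at 31.9, 30.6 and 18.6 CPM, which overlapped vehicle. With LPC + dantrolene it read 7.73, 4.35 and 7.57 CPM, below every LPC library and below every vehicle library. Of all genes, 5.74% lay below every vehicle library in this way. The log2 differences of LPC + dantrolene were -2.04 from LPC, by which the gene was chosen, and -2.08 from vehicle (not tested). Within isolations 1, 2 and 3 the difference from LPC was -2.03, -2.79 and -1.29, and without LPC + dantrolene replicate 2 it was -1.83. APLN (ENSSSCG00000048443) lies at chrX:106236746-106246563.

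The apelin receptor had no counts. APLNR (ENSSSCG00000038869) was listed at 0 in all 12 libraries, and 3 counts, the limit that a count of 0 allows, would be 0.114 to 0.186 CPM. Such limits cover counting error only. Of the 31908 genes with a row, 19607 had a count in any library. Unlike the other members, APLNR had no chromosome in the gene positions used. Whether its annotation lowered the count was not tested.

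EDN1, the endothelin-1 precursor, was also lower with dantrolene than with vehicle. It read 22.1, 25.8 and 25.9 CPM in vehicle and 10.3, 10.3 and 14.0 CPM with dantrolene, lower without overlap, as were 11% of all genes. Its log2 difference was -1.09 (SE 0.35; 95% interval -1.79 to -0.39; edgeR adjusted p = 0.0328), and it was -1.09, -1.32 and -0.88 within isolations 1 to 3. This call was close to the threshold. It was kept in 10 of 19 alternative fits and lost in 9, among them DESeq2, scaling by total counts alone, the fit with isolation as a replicate block (log2 difference -1.09; edgeR adjusted p = 0.0815), and each fit that left out a vehicle or a dantrolene library. Over the alternatives the log2 difference lay between -1.25 and -0.85, and the adjusted p between 0.00736 and 0.196. With LPC, EDN1 read 23.5, 9.88 and 20.1 CPM, and with LPC + dantrolene 14.5, 15.6 and 7.12 CPM. The LPC libraries overlapped vehicle, while the LPC + dantrolene libraries lay below it, as they did for 5.74% of all genes. The log2 difference of EDN1 there was -0.99 (edgeR adjusted p = 0.0754). Without LPC + dantrolene replicate 2 that difference was -1.12 and passed the threshold (edgeR adjusted p = 0.0128). EDN1 (ENSSSCG00000035598) lies at chr7:8752018-8758354.

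APLN and EDN1 were the 2 genes called among the 8 tested between dantrolene and vehicle. Of all genes tested, 8.8% were called there in either direction and 1.26% were called lower. Vascular endothelium makes both peptides, and CDH5, the adhesion molecule of endothelial junctions, fell as well, from 31.8 ± 5.15 CPM in vehicle to 13.8 ± 0.739 CPM with dantrolene (SD, n = 3; log2 difference -1.20, edgeR adjusted p = 0.0111). CDH5 was the only call among 13 endothelial markers tested, and it was kept in 15 of 19 alternative fits. PECAM1 read 44.1, 36.8 and 39.5 CPM in vehicle and 23.6, 41.4 and 35.6 CPM with dantrolene, and the endothelial transcription factor ERG read 87.2, 51.5 and 61.3 CPM against 77.4, 54.7 and 58.4 CPM. The part of endothelial transcripts in the APLN and EDN1 differences was not tested.

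EDNRA, the constrictor receptor for endothelin-1, averaged 17.5 ± 1.45 CPM in vehicle, 14.6 ± 3.05 CPM with LPC, 13.4 ± 2.54 CPM with dantrolene and 10.1 ± 3.45 CPM with LPC + dantrolene (SD, n = 3). With LPC + dantrolene it read 14.0, 7.76 and 8.42 CPM, below all vehicle libraries, as did 5.74% of all genes. That log2 difference was -0.80 (95% interval -1.48 to -0.12) and missed the threshold after adjustment (edgeR adjusted p = 0.198). Those with LPC and with dantrolene alone were -0.26 and -0.39 (edgeR adjusted p = 0.727 and 0.677). EDNRB, the second endothelin receptor, had 0 counts in the 3 vehicle libraries. It had 0, 6 and 0 counts with LPC, 0, 7 and 1 with dantrolene, and 6, 0 and 2 with LPC + dantrolene, too few to compare. EDNRA (ENSSSCG00000009031) lies at chr8:81210750-81279053 and EDNRB (ENSSSCG00000009477) at chr11:50073300-50102879.

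ESM1 followed NPR3. It read 11.7, 14.2 and 13.8 CPM in vehicle, and 24.2, 22.2 and 43.6 CPM with LPC. It read 6.95, 17.3 and 7.85 CPM with dantrolene, and 12.2, 3.73 and 5.31 CPM with LPC + dantrolene. The 3 LPC libraries were above all others, where LPC libraries lay above vehicle for 16.6% of all genes. The dantrolene libraries of ESM1 lay on both sides of vehicle. The log2 difference between LPC and vehicle was 1.18 (SE 0.37, not tested), and that between dantrolene and vehicle was -0.30 (95% interval -1.03 to 0.43; edgeR adjusted p = 0.774). Against LPC, the contrast used to choose the gene, LPC + dantrolene differed by -2.08 on the log2 scale, by -0.98, -2.55 and -3.01 within isolations 1, 2 and 3, and by -1.79 without LPC + dantrolene replicate 2. ESM1 (ENSSSCG00000016900) lies at chr16:34184255-34193877.

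AGTR1, the main receptor for angiotensin II, was lowest with LPC + dantrolene, and its libraries in the other 3 groups ran from 11.3 to 20.9 CPM. It read 13.6, 14.1 and 12.2 CPM in vehicle, 13.1, 16.9 and 20.9 CPM with LPC, and 12.4, 11.5 and 11.3 CPM with dantrolene. Of all genes, 2.18% lay below every dantrolene library with LPC + dantrolene, and 5.74% below every vehicle library. AGTR1 itself read 10.2, 4.04 and 6.11 CPM with LPC + dantrolene, below every other library. The log2 difference between dantrolene and vehicle was -0.18 (95% interval -0.87 to 0.51; edgeR adjusted p = 0.855), and its sign turned when libraries were scaled by total counts alone (0.057). LPC + dantrolene differed by -1.32 from LPC, -0.97 from vehicle and -0.79 from dantrolene alone on the log2 scale, of which the first chose the gene and the others share its libraries. Within isolations 1, 2 and 3 the difference from LPC was -0.36, -2.04 and -1.75, so isolation 1 showed the smallest. Without LPC + dantrolene replicate 2 it was -1.07. The authors had already named AGTR1 as lower with LPC + dantrolene than with LPC in these libraries. AGTR1 (ENSSSCG00000011695) lies at chr13:88934873-88980317.

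**Figure D2:**
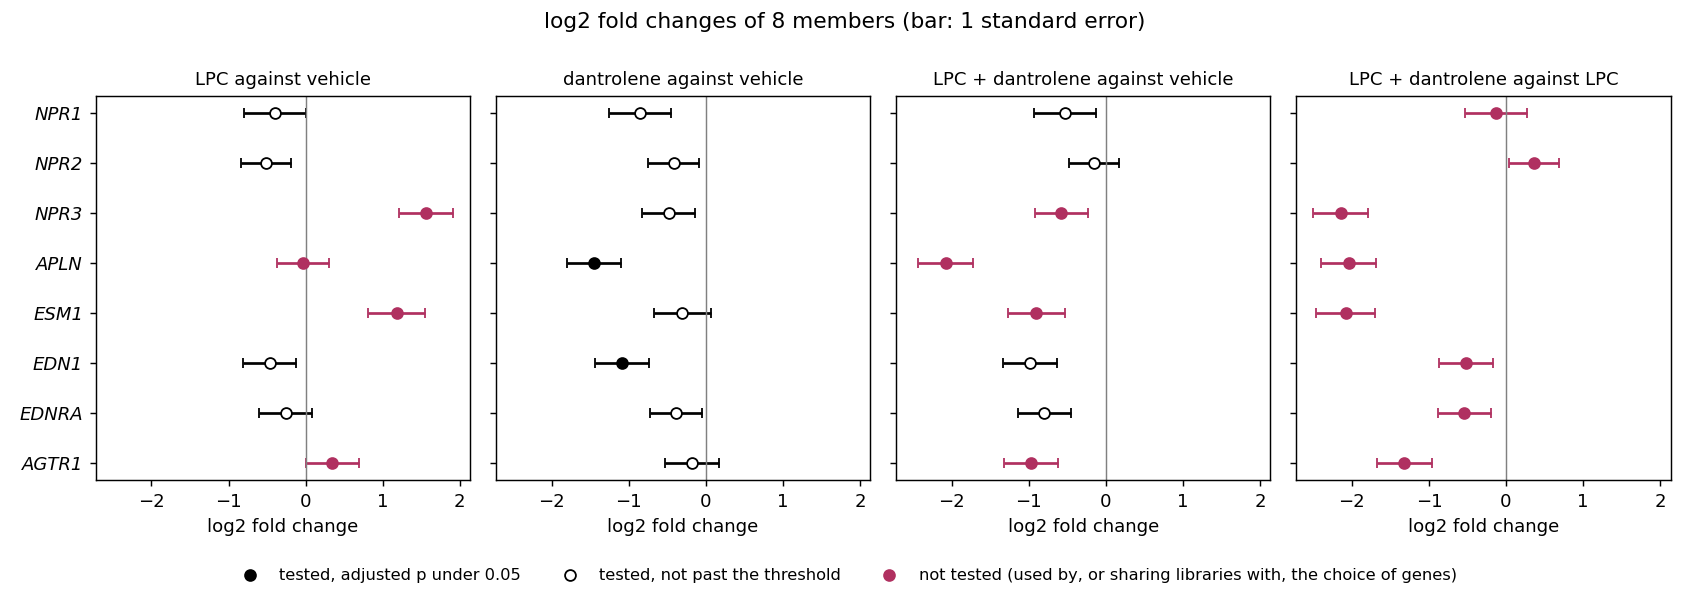
log2 fold changes (horizontal axes; bars, 1 SE from the fit of 12 libraries) of the 8 genes in 4 comparisons, with black points tested, filled where the adjusted p was under 0.05, and red points not tested. APLN at -1.45 and EDN1 at -1.09 are the filled points, both between dantrolene and vehicle.

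By group, the libraries of the 4 genes around which the set was assembled were ordered differently. NPR3 and ESM1 were highest with LPC, and their LPC and vehicle libraries did not overlap. Libraries of 16.6% of all genes tested separated in that way. APLN separated the libraries with dantrolene from those without it, and the share of all genes with this separation was not computed. Against vehicle, 11% of all genes were lower without overlap with dantrolene and 5.74% with LPC + dantrolene. AGTR1 separated LPC + dantrolene from the rest, and its neighbour in that order, dantrolene alone, did not overlap with it, where 2.18% of all genes were lower without overlap. The other neighbours in the order of group means overlapped, for these 4 and for the other 4 genes. Between LPC + dantrolene and LPC, 0.507% of all genes were called and 4.93% were lower without overlap, as were all 4 chosen genes. Nothing is read from this count, since the contrast chose the genes. The same choice favoured high LPC libraries and low LPC + dantrolene libraries, so the separations of the 4 genes there are descriptions only.

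The other 6 genes were tested in the remaining comparisons, of which NPR1, NPR2, EDN1 and EDNRA could be fitted. By edgeR none of these 4 was called between LPC and vehicle (8.69% of all genes called), between LPC + dantrolene and vehicle (7.14%), between LPC + dantrolene and dantrolene (0.0227%), or for the interaction, the difference in the effect of LPC with and without dantrolene (4.65%). DESeq2 called 0 in each as well. At an unadjusted p under 0.05, edgeR gave 2 of the 4 between LPC + dantrolene and vehicle, EDN1 and EDNRA, where 14.5% of all genes passed, and 0 in the other 3. Interaction terms ran from -0.15 for EDNRA (95% interval -1.11 to 0.81) to 0.78 for NPR2 (95% interval -0.14 to 1.69), intervals that leave room for differences of more than 1 log2 unit. For the 4 chosen genes the same term was -1.66 for NPR3, -1.78 for ESM1, -1.14 for AGTR1 and -0.60 for APLN, without a test.

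NPR3 and ESM1 were also the closest pair of the 8 genes over the 12 libraries. Their log2 CPM, each centred on its own mean, differed by a root mean square of 0.331, against own variation of 0.969 and 0.942. The next pair was EDNRA and AGTR1 at 0.355, and the farthest was NPR2 and NPR3 at 1.20. NPR3 counts were 1.59 to 3.21 times ESM1 counts in the same library, a ratio that no scaling factor enters, while the level of NPR3 varied by 10.2 times and that of ESM1 by 11.7 times over libraries. In 3 of 4 groups the same library was highest for both, namely LPC replicate 3, dantrolene replicate 2 and LPC + dantrolene replicate 1. The ratio was chosen after the values were seen.

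Among 11494 other genes with a symbol, ESM1 was the closest to NPR3, followed by NKAIN3 (0.400), which encodes a protein associated with the sodium pump, and HDAC9 (0.401), a class IIa histone deacetylase. HDAC9 was the closest to ESM1 (0.304), ahead of NPR3 and of INHBA (0.400), a subunit of activin A. INHBA averaged 159 CPM in vehicle, 251 with LPC, 125 with dantrolene and 93.2 with LPC + dantrolene. Closest to APLN was ANKRD37 (0.347), a hypoxia-inducible gene, followed by CDCA5 (0.427), a regulator of cohesin, and PRKRA (0.449), an activator of the kinase PKR. Closest to AGTR1 were the Wnt receptor FZD6 (0.178), the secreted protein C1QTNF3 (0.202) and LIMCH1 (0.232), an actomyosin regulator. The median gene lay at 1.08 from NPR3, 1.04 from APLN, 1.06 from ESM1 and 0.75 from AGTR1. These likenesses rest on 12 libraries in 4 groups and include the contrast that chose the genes. For that contrast the authors had already named HDAC9, like AGTR1, as lower.

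**Figure D3:**
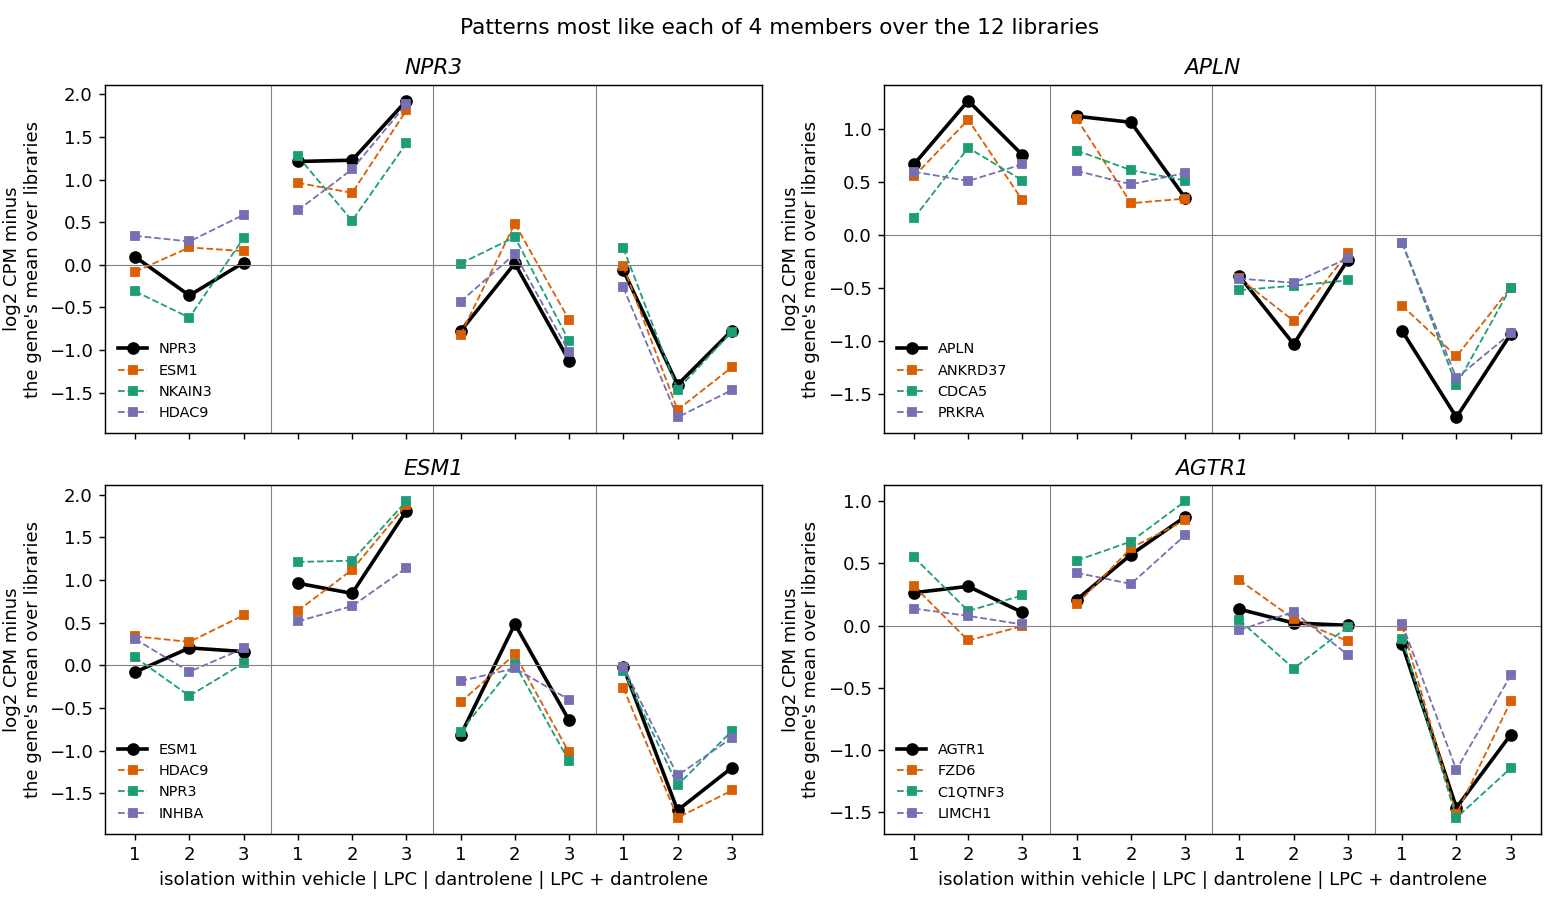
log2 CPM of NPR3, APLN, ESM1 and AGTR1 (black) and of the 3 genes closest to each, centred on each gene's mean (vertical axes), in the 12 libraries ordered by group and isolation (horizontal axes). NPR3 and ESM1 peak at LPC replicate 3 and dip at LPC + dantrolene replicate 2, and APLN lies below 0 in all 6 libraries with dantrolene.

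The rest of these pathways was followed in 7 lists, of which 77 genes that are not in the set were tested. With LPC, 11 of the 77 rose over vehicle and 0 fell, where 8.54% of all genes rose and 0.144% fell. With dantrolene 11 rose and 6 fell, where 7.54% of all genes rose and 1.26% fell, and with LPC + dantrolene 8 rose and 5 fell, where 6.23% and 0.9% did. The median log2 difference over the 77 genes was -0.14, -0.25 and -0.17 in the 3 comparisons, beside -0.18, -0.11 and -0.08 over all genes. The 17 dantrolene calls were 10 with the replicate block, 7, 9, 9 and 11 without vehicle replicates 2 and 3 and LPC replicates 2 and 1, and 6 without dantrolene replicate 2. The 13 LPC + dantrolene calls were 22 without LPC + dantrolene replicate 2, and 7 each without vehicle replicate 2 and without LPC + dantrolene replicate 3.

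In the natriuretic list, 2 of 10 genes rose with LPC, PDE5A and PRKG1, where 8.54% of all genes rose, and the other 8 were not called. PDE5A, a phosphodiesterase that degrades cyclic GMP, read 20.9, 16.6 and 12.9 CPM in vehicle and 77.4, 67.6 and 61.3 CPM with LPC (log2 difference 2.03; edgeR adjusted p = 1.53e-05). PRKG1, a kinase that cyclic GMP activates, rose by 1.86 on the log2 scale (edgeR adjusted p = 0.000182). Both also rose with dantrolene, by 1.68 and 1.15 (edgeR adjusted p = 0.000377 and 0.0338), although the PRKG1 call with dantrolene was kept in 11 of 19 alternative fits and lost with the replicate block. With LPC + dantrolene only PDE5A passed (1.81; edgeR adjusted p = 0.000142), at 74.2, 24.1 and 78.9 CPM, the low value being replicate 2. Without that library 4 genes of the list passed, PDE5A, PRKG1, PDE3A and GUCY1B1. NPPB, which encodes brain natriuretic peptide, had 16, 45 and 57 counts in vehicle, 30, 10 and 0 with LPC, 0, 3 and 0 with dantrolene, and 11, 5 and 1 with LPC + dantrolene. It fell with dantrolene (edgeR adjusted p = 0.000794), though at counts too low for a fold to be given. NPPC, the gene for C-type natriuretic peptide, was listed at 0 in every library, where 19607 of 31908 genes had a count in any.

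In the apelin list GNAI1, a Gi subunit, rose in each of the 3 comparisons with vehicle, by 1.61, 1.11 and 1.05 on the log2 scale (edgeR adjusted p = 0.000476, 0.0249 and 0.0444). It was 1 call of 3 genes tested, where 8.54%, 7.54% and 6.23% of all genes rose. The last GNAI1 call was kept in 9 of 19 alternative fits. In the angiotensin list LNPEP, the aminopeptidase that binds angiotensin IV, was likewise the only call of 9 genes, beside the same shares of all genes. Its log2 differences were 2.11, 1.88 and 1.61 (edgeR adjusted p = 1.46e-05, 0.000126 and 0.00106). AGTR2 and MAS1 were listed at 0 in all libraries, where 19607 of 31908 genes had a count in any. In the endothelin list edgeR and DESeq2 called 0 of the 2 genes tested in each comparison, and 0 passed an unadjusted p of 0.05.

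Of 13 other vasoactive peptides and receptors tested, ADM and CALCRL were called in comparisons with vehicle. Of all genes, 8.69% were called with LPC, 8.8% with dantrolene and 7.14% with LPC + dantrolene. ADM encodes adrenomedullin, a vasodilator that signals through CALCRL. ADM read 35.3, 74.5 and 67.3 CPM in vehicle and 20.6, 32.8 and 32.2 CPM with dantrolene, a log2 difference of -1.05 (edgeR adjusted p = 0.0355), and it fell by 1.08 with LPC + dantrolene (edgeR adjusted p = 0.0327). These calls were kept in 8 and 7 of 19 alternative fits. CALCRL had 0, 0 and 5 counts in vehicle and 13 to 57 counts in each of the 9 treated libraries, and it rose in all 3 comparisons (edgeR adjusted p = 0.00312 with LPC, 0.0123 with dantrolene and 0.00866 with LPC + dantrolene).

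In the list of Gq coupling and its regulators, which serves EDNRA and AGTR1, 4 of 20 genes rose with LPC, 5 with dantrolene and 2 with LPC + dantrolene, and 0 fell. Of all genes, 8.54%, 7.54% and 6.23% rose. On leaving out libraries the counts ran from 1 to 5, 0 to 6 and 0 to 6, with 1 for LPC without vehicle replicate 3, 0 for dantrolene without dantrolene replicate 2, and 6 for LPC + dantrolene without its replicate 2. GNAQ, the Gq subunit itself, read 29.3, 25 and 17.1 CPM in vehicle and 61.7, 60.7 and 59.8 CPM with LPC (log2 difference 1.35; edgeR adjusted p = 0.00439). PLCB1, a phospholipase C, rose by 1.42, 1.30 and 1.31 with LPC, dantrolene and LPC + dantrolene (edgeR adjusted p = 0.00283, 0.00774 and 0.00784). ITPR2, a receptor that releases stored calcium, rose by 1.39, 1.45 and 1.37 (edgeR adjusted p = 0.0161, 0.0121 and 0.0218), calls kept in 12, 14 and 10 of 19 alternative fits and all lost with the replicate block. GNA13 rose with LPC by 1.29, and PLCB4 rose with dantrolene by 2.35 (edgeR adjusted p = 0.0054 and 0.00562). These calls were kept in 16 of 19 and 13 of 18 alternative fits.

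The list of hypoxia-inducible and angiogenic genes, to which APLN is related, divided with dantrolene. Of 20 genes 4 fell and 1 rose, where 1.26% of all genes fell and 7.54% rose. PFKFB3, a regulator of glycolysis, read 88.0, 96.1 and 77.2 CPM in vehicle and 22.1, 26.2 and 33.3 CPM with dantrolene (log2 difference -1.68; edgeR adjusted p = 0.000236). BNIP3, a mitophagy receptor, fell by 1.63, and LDHA, lactate dehydrogenase, by 1.19 (edgeR adjusted p = 0.0004 and 0.0137). The LDHA call was kept in 14 of 19 alternative fits, here and with LPC + dantrolene. ANKRD37, the gene closest to APLN, fell by 1.16 (edgeR adjusted p = 0.0473), a call kept in 6 of 19 alternative fits. HIF1A, the oxygen-regulated transcription factor, rose by 1.47 (edgeR adjusted p = 0.00269), and it also rose with LPC by 1.5 and with LPC + dantrolene by 1.56 (edgeR adjusted p = 0.0017 and 0.00143). With LPC + dantrolene the same 4 genes fell, where 0.9% of all genes did, at -1.41 for PFKFB3, -1.52 for BNIP3, -1.12 for LDHA and -1.46 for ANKRD37. With LPC alone their log2 differences were -0.39, -0.45, -0.24 and -0.06 and none was called. ANGPTL4, a lipid-regulated secreted protein, rose with LPC by 1.66 and with LPC + dantrolene by 1.85 (edgeR adjusted p = 0.000197 and 6.69e-05). The comparisons with vehicle share the vehicle libraries. The authors had reported HIF1 pathway genes as lower with dantrolene in these libraries. The list was chosen with earlier results known, so its counts are not independent of them.

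**Figure D4:**
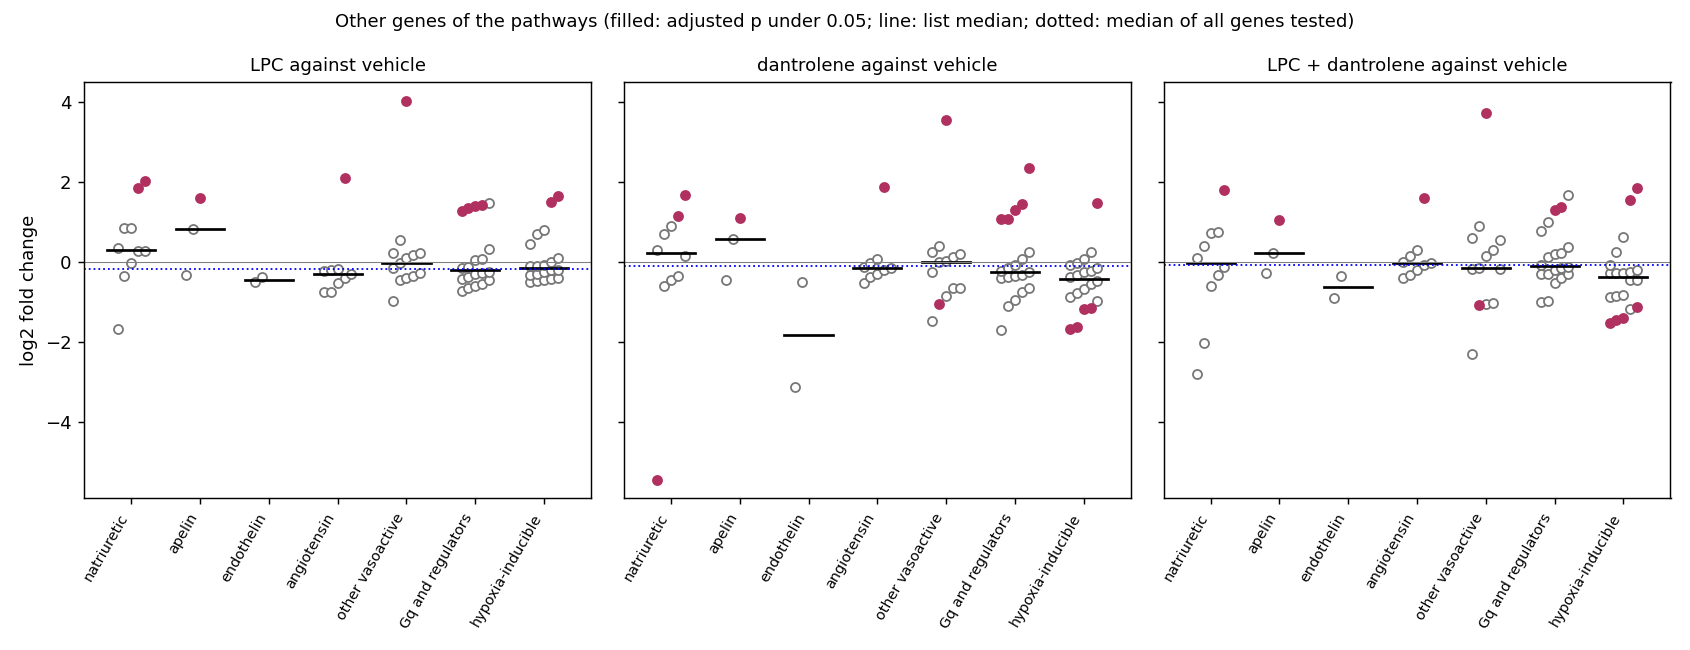
log2 fold changes (vertical axis) of the 77 pathway genes by list (horizontal axis) against vehicle, with filled points called at an adjusted p under 0.05, a line at each list's median and a dotted line at the median of all genes tested. The filled points lie above 0 with LPC, and on both sides of it with dantrolene and with LPC + dantrolene, and the largest fold changes belong to CALCRL and NPPB, whose counts were near 0 in 1 of the groups.

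Directly between LPC + dantrolene and LPC, 1 of the 77 pathway genes was called, where 0.288% of all genes were called lower. P4HA1, a collagen prolyl hydroxylase induced by hypoxia, read 450, 632 and 511 CPM with LPC and 260, 97.8 and 283 CPM with LPC + dantrolene (log2 difference -1.31; edgeR adjusted p = 0.0464), a call also kept in 6 of 19 alternative fits. Without LPC + dantrolene replicate 2, the library at 97.8 CPM, it was lost (-0.98; edgeR adjusted p = 0.118), and BNIP3, LDHA and PFKFB3 were called lower instead. At an unadjusted p under 0.05 there were 17 of 77, where 6.61% of all genes passed, and 11 of the 17 were in the hypoxia-inducible list. Between LPC + dantrolene and dantrolene ANGPTL4 was the only call, higher by 2.84 on the log2 scale (edgeR adjusted p = 7.59e-08), where 0.0151% of all genes were called higher. The authors had already named P4HA1 and ANGPTL4 from these libraries, so neither call is independent of the choice of the list. For the interaction 5 of 77 were called, all negative, where 4.49% of all genes were, namely LNPEP, PRKG1, PDE5A, GNAI1 and GNAQ (edgeR adjusted p from 0.00182 to 0.0318). These 5 were called without LPC + dantrolene replicate 2 as well, while 0 of 77 were called without dantrolene replicate 2 or without LPC replicate 2, 1 without vehicle replicate 2, 2 without LPC replicate 1 and 12 without LPC + dantrolene replicate 3. With the replicate block 3 were called.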

How the data were processed

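Poly-A RNA of paVICs was sequenced in 12 libraries, 3 in each of 4 groups. The authors deposited a table of read counts per Ensembl gene on Sscrofa11.1, which they had adjusted for isolation with ComBat. The methods name STAR and the submitters' processing notes HISAT2 2.0.5, so the aligner is uncertain. The 4 deposited tables of the authors' own comparisons (mean signal, log2 fold change, standard error and p-values) were not used.

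Counts were tested in R 4.3.3 with edgeR 4.0.16 (TMM, filterByExpr, quasi-likelihood test, 1 fit of all groups, Benjamini-Hochberg adjustment over 13216 genes, called at adjusted p under 0.05), and the code was tested on simulated data. Because the batch had already been removed from the counts, p-values may be too small. Same-numbered libraries were taken to come from the same isolation, which the labels do not state. After the adjustment their deviations from group means correlated at a median of -0.152 (range -0.536 to 0.207), against 0.108 for libraries of different numbers and groups. The replicate number was the block in an alternative fit. Other alternatives were DESeq2 1.42.0, other scaling, other filters, fits of 2 groups and leaving out each library.

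Symbols came from the table, or for 572 genes from an Ensembl gene list, and positions from RefSeq. Members and lists were chosen with earlier results of these data known. No p is given for NPR3, APLN, ESM1 or AGTR1 where LPC or LPC + dantrolene libraries enter. Named are the members, up to 4 called genes per list and comparison with the smallest adjusted p, and the 3 genes closest to each chosen gene by root mean square difference of centred log2 CPM (prior count 2). Items withheld from the text are not reported here.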

Additional observations from a re-analysis of the deposited data

Results flagged for a closer look

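For 5 pathway genes the effect of LPC differed between cells without and with dantrolene by the interaction term of the edgeR fit. The term was -2.38 for LNPEP (LPC effect 2.11 without dantrolene and -0.27 with it, on the log2 scale), -2.26 for PRKG1 (1.86 and -0.40), -1.90 for PDE5A (2.03 and 0.14), -1.67 for GNAI1 (1.61 and -0.06) and -1.65 for GNAQ (1.35 and -0.30). These were 5 of 77 pathway genes (6.49%), where 4.49% of all genes had a called negative term, so the count is not read as particular to them. Among the LPC + dantrolene libraries all 5 were lowest at replicate 2, as LNPEP was at 39.1, 11.9 and 36.8 CPM. All 5 were called without that library as well. Of the 77, 0 were called without dantrolene replicate 2 or without LPC replicate 2, and 2 with total counts alone. Each was also higher with dantrolene alone than with vehicle.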

How the results depend on the processing

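The count of 2 members called between dantrolene and vehicle was 1 with total counts alone, 1 with DESeq2 and 1 with the replicate block, and 0 to 2 when each library was left out, 0 without dantrolene replicate 2. The count of 0 of the 4 other members called between LPC + dantrolene and vehicle was 0 to 1 on leaving out libraries, EDN1 being called without LPC + dantrolene replicate 2. The 1 pathway call between LPC + dantrolene and LPC was lost (0) with RLE size factors, total counts alone, fits of 2 groups and the replicate block, and the count was 0 to 3 on leaving out libraries. The cause was not tested. The isolation block changed no other member's call. Signs turned only in members' differences that were not called or not tested. AGTR1 between dantrolene and vehicle was 0.057 with total counts alone. On leaving out libraries the EDNRA interaction ran from -0.47 to 0.027, NPR2 between LPC + dantrolene and vehicle from -0.51 to 0.11, and between LPC + dantrolene and dantrolene NPR2 ran from -0.16 to 0.52 and EDN1 from -0.096 to 0.38. Without a test, NPR3 in that last comparison ran from -0.51 to 0.30, and APLN between LPC and vehicle from -0.17 to 0.17. Between LPC + dantrolene and LPC, also not tested, NPR1 ran from -0.36 to 0.0082 and NPR2 from -0.066 to 0.62. Of 48 calls of pathway genes 17 were kept in every alternative, 31 were lost in at least 1 and none changed sign. The share of all genes called moved as well on leaving out libraries, from 5.04% to 12.5% between LPC and vehicle, 3.16% to 13.2% between dantrolene and vehicle, 3.73% to 15.5% between LPC + dantrolene and vehicle, 0.066% to 1.03% between LPC + dantrolene and LPC, and 0.0293% to 6.87% for the interaction. The log2 differences between LPC + dantrolene and LPC ranged over all alternatives from -2.56 to -1.87 for NPR3, -2.25 to -1.83 for APLN, -2.73 to -1.71 for ESM1 and -1.74 to -1.07 for AGTR1. Scaling by total counts alone moved the median log2 difference of all genes between dantrolene and vehicle from -0.11 to 0.13, and between LPC and vehicle from -0.18 to 0.00. With 3 libraries a group, the members' log2 differences between dantrolene and vehicle had standard errors of 0.32 (NPR2) to 0.40 (NPR1), which limits what could be detected.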
